A study of Homo sapiens with 6 samples.

Results

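The genes described here are 10 negative-feedback regulators of MAP kinase signalling, chosen by name from a table of 58735 genes. They are the dual-specificity phosphatases DUSP1, DUSP2, DUSP4, DUSP5, DUSP6 and DUSP10, the Sprouty genes SPRY1 and SPRY2 and the Spred genes SPRED1 and SPRED2. They were measured by RNA sequencing in Raji cells, a long-established Burkitt lymphoma line, which were kept overnight at 37 °C either with 1 nM Bryostatin-1 or with its solvent DMSO alone. Both groups had the genotype GFP-ffluc, a fluorescent protein and luciferase reporter, and were grown in medium with 10% serum. There were 3 libraries of polyadenylated RNA with Bryostatin-1 (bryostatin replicates 1 to 3) and 3 with DMSO (DMSO replicates 1 to 3). Raji is a single cell line, and the labels do not say whether each library had a culture of its own. The p-values below therefore speak only of the spread among these 6 libraries, which may be technical.

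When a growth factor or antigen receptor switches on RAS, the kinases RAF, MEK and ERK are activated in turn, and ERK drives transcription of genes that shut the same pathway off. DUSP phosphatases of this class remove phosphate from both the threonine and the tyrosine that activate ERK, JNK or p38, whereas Sprouty and Spred proteins act further up, at the level of RAS and RAF. Bryostatin-1 is a ligand of C1 domains, which occur in protein kinase C and in RasGRP exchange factors, and both of these feed into RAS and ERK in B cells. The comparison asks whether transcripts of these regulators differed between cells kept with Bryostatin-1 and cells kept with solvent.

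Between 19405370 and 24468270 reads per library fell on genes, as recovered from the deposited values. The values are FPKM, fragments scaled to the gene's length in kilobases and to the library's depth. The B-cell markers CD79A, CD79B, MS4A1 and CD22 were all abundant, and the 7 markers summed to between 996.1 and 1375 FPKM with Bryostatin-1 and between 929.5 and 1465 FPKM with DMSO. The 6 monocyte markers summed to between 0.136 and 0.721 FPKM with Bryostatin-1 and between 0.826 and 1.21 FPKM with DMSO. Each of these markers averaged under 1 FPKM over the 6 libraries. S100A9 had the most, with means of 0.268 FPKM with Bryostatin-1 and 0.664 FPKM with DMSO, and its groups overlapped. The means of CSF1R and FCGR3A were higher with Bryostatin-1, and those of the other monocyte markers were higher with DMSO. Among 6 T-cell markers the constant-region gene TRBC2 had 10.2 to 23.7 FPKM with Bryostatin-1 and 10.9 to 36.9 FPKM with DMSO, while CD3D was at 0 in 5 of the 6 libraries. In RNA from whole cultures, fewer cells with a transcript and less of it in each cell cannot be told apart.

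Of the 10 genes, 6 reached a mean of 1 FPKM over the 6 libraries, the level needed for testing, and each of these 6 was above it in both groups. The other 4 genes, DUSP4, DUSP6, SPRY1 and SPRY2, were at or near 0. None of the 6 tested genes passed an adjusted p of 0.05 in limma, a linear model fitted over all genes, and none passed with voom precision weights. The same model called 0 of 11071 genes (0%), with a smallest adjusted p of 0.121. At an unadjusted p under 0.05 there was 1 of the 6 feedback genes, DUSP1, where the share over all genes was 17.6%. Of the 6, 4 had a positive and 2 a negative log2 change, where 53.9% of all tested genes had a positive one. The median of the 6 was 0.10, beside 0.018 over all genes. That median was 0.47 without bryostatin replicate 2 and 0.38 without DMSO replicate 2, and it turned negative without any 1 of the other libraries but DMSO replicate 1, at -0.0376 without bryostatin replicate 1, -0.11 without bryostatin replicate 3 and -0.11 without DMSO replicate 3. Without bryostatin replicate 3 only 2 were positive, and without bryostatin replicate 2 all 6 were, and 4 of the 6 genes, DUSP2, DUSP5, DUSP10 and SPRED1, took either sign as single libraries were left out.

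Promoter sequences are shown for 2 genes on which the results turn, DUSP1, the member whose groups did not overlap, and DUSP2, the most abundant member and one that varied widely between libraries. Each is the stretch of 250 bases before the RefSeq start (build GRCh38.p14), on the minus strand, at chr5:172771196-172771445 for DUSP1 and chr2:96145441-96145690 for DUSP2. RefSeq windows were matched for 8 of the 10 genes. Capitals mark motif letters found on either strand.
DUSP1: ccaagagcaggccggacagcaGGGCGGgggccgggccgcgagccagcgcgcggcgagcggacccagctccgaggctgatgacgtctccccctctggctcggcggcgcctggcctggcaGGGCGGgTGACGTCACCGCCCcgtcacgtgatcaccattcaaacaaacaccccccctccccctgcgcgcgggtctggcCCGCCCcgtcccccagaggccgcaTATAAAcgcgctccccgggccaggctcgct
DUSP2: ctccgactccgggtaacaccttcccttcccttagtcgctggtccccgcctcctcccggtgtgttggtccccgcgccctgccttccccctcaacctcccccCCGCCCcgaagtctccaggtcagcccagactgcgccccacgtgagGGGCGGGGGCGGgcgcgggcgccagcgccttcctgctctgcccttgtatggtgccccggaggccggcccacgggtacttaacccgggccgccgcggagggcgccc
The DUSP1 stretch holds a full cAMP response element (TGACGTCA) 125 bases before the start, a TATA box (TATAAA) 30 bases before it and 4 GC boxes (GGGCGG), with 1 on each side of the response element. The DUSP2 stretch holds 3 GC boxes, 2 of which adjoin, and neither a response element nor a TATA box. Among 35116 such stretches over all genes, 1.65% hold the full response element, 10.7% the TATA box and 42.6% the GC box. The AP-1 motif (TGANTCA, 6.57%), the ETS motif (CCGGAA, 14.5%), the CArG box (1.16%) and the NF-kB motif (9.96%) were searched as well and are not in either window. In the DUSP2 window, 55 bases lie in an exon of another annotated gene.

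DUSP2 and DUSP5, both nuclear phosphatases, were the most abundant of the set. DUSP2, also called PAC-1, is an inducible nuclear phosphatase of lymphocytes (ENSG00000158050, hg38 chromosome 2, 96143166 to 96145440). It had 100.4, 63.8 and 111.3 FPKM in bryostatin replicates 1 to 3 and 110.8, 129.7 and 57.7 FPKM in DMSO replicates 1 to 3. The lowest value of each group lay far below the other 2, and the groups overlapped. The means were 91.8 ± 24.8 FPKM with Bryostatin-1 and 99.4 ± 37.3 FPKM with DMSO (SD, n = 3 each). As a log2 difference of FPKM + 1, a scale that shrinks the changes of weakly expressed genes, the change was -0.07 with a 95% interval from -0.85 to 0.71 (adjusted p = 0.928 in limma). A change of 1.5-fold in either direction therefore lies inside the interval.

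DUSP5 encodes a nuclear phosphatase that acts on ERK and not on JNK or p38 (ENSG00000138166, chromosome 10, 110497838 to 110511544). It had 30.5, 12.0 and 40.8 FPKM in bryostatin replicates 1 to 3 and 27.7, 37.2 and 13.4 FPKM in DMSO replicates 1 to 3. The same 2 libraries as for DUSP2, bryostatin replicate 2 and DMSO replicate 3, were the lowest. Within a group the highest library stood 3.39-fold above the lowest with Bryostatin-1 and 2.77-fold with DMSO, whereas the means of 27.8 ± 14.6 FPKM with Bryostatin-1 and 26.1 ± 12.0 FPKM with DMSO (SD, n = 3 each) nearly coincided. The log2 change was 0.04 with an interval from -1.13 to 1.21 (adjusted p = 0.973 in limma), and its sign turned when values were scaled to TPM.

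DUSP1, or MKP-1, is a nuclear phosphatase of p38, JNK and ERK and an early response gene in many cell types (ENSG00000120129, chromosome 5, 172768090 to 172771195). It was weakly expressed, with 3.11, 2.53 and 2.43 FPKM in bryostatin replicates 1 to 3 and 1.59, 2.10 and 1.51 FPKM in DMSO replicates 1 to 3. Every Bryostatin-1 library was above every DMSO library, which held for no other member. These values rest on 119, 102 and 106 reads with Bryostatin-1 and 79, 93 and 61 reads with DMSO. The means were 2.69 ± 0.366 FPKM with Bryostatin-1 and 1.73 ± 0.323 FPKM with DMSO (SD, n = 3 each), a ratio of 1.55. The log2 change of 0.43 had an SE of 0.13 and a 95% interval from 0.14 to 0.73, but the adjusted p over all genes was 0.217 in limma and ran from 0.157 to 0.584 over the alternatives tried. The exact two-sided permutation test gave p = 0.1, the smallest that 3 against 3 libraries allow. A complete separation with higher values was found in 12.9% of all tested genes, and in 1 of these 6. The antisense gene AC022217.3 spans DUSP1 and had 0.126, 0.0597 and 0.388 FPKM in bryostatin replicates 1 to 3 and 0, 0.109 and 0 FPKM in DMSO replicates 1 to 3. The strand setting is not known and their exons were not compared, so whether reads of one were counted for the other is not known. The part of AC022217.3 in the DUSP1 difference was not tested.

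DUSP10, or MKP-5, prefers JNK and p38 over ERK (ENSG00000143507, chromosome 1, 221701424 to 221742176). It had 5.86, 3.76 and 5.49 FPKM in bryostatin replicates 1 to 3 and 5.50, 6.73 and 4.68 FPKM in DMSO replicates 1 to 3. Here too bryostatin replicate 2 and DMSO replicate 3 were the 2 lowest libraries, and the groups overlapped. The log2 change was -0.14 (interval -0.55 to 0.26, adjusted p = 0.676 in limma).

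DUSP6, the cytoplasmic ERK phosphatase known as MKP-3, and DUSP4, the nuclear phosphatase MKP-2, are classical readouts of ERK activity in other cells and were almost silent here. DUSP6 (ENSG00000139318, chromosome 12, 89347232 to 89353271) had 1, 1 and 0 reads in bryostatin replicates 1 to 3 and 2, 3 and 2 reads in DMSO replicates 1 to 3. The ratio of reads per depth was 0.311 with an exact 95% interval from 0.0315 to 1.63, which covers counting error only, so a difference was not detectable at this depth. DUSP4 (ENSG00000120875, chromosome 8, 29333064 to 29350668) had 0 reads in all 6 libraries. A count of 0 allows up to 3 reads, or 0.0168 to 0.0218 FPKM depending on the library.

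The Sprouty genes, whose products hold back RAS and RAF activation downstream of receptor tyrosine kinases, were equally close to absent from the libraries. SPRY1 (ENSG00000164056, chromosome 4, 123396795 to 123403760) and SPRY2 (ENSG00000136158, chromosome 13, 80335976 to 80340951) each had 1 read, both in bryostatin replicate 1, and 0 reads in the other 5 libraries. Both groups lay under the limit of 3 reads per library, 0.0307 to 0.0399 FPKM for SPRY1 and 0.0401 to 0.0521 FPKM for SPRY2, so no fold is given.

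The Spred genes, by contrast, were both expressed. SPRED1 carries neurofibromin, the RAS GTPase-activating protein, to the membrane (ENSG00000166068, chromosome 15, 38252326 to 38357249). It had 9.22, 4.47 and 10.0 FPKM in bryostatin replicates 1 to 3 and 5.46, 9.83 and 5.29 FPKM in DMSO replicates 1 to 3. The high libraries were bryostatin replicates 1 and 3 and DMSO replicate 2, so that each group spanned nearly the whole range. The log2 change was 0.16 (interval -0.58 to 0.90, adjusted p = 0.811 in limma), and without bryostatin replicate 3 it was -0.0245.

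SPRED2, a paralogue that also restrains RAS signalling to ERK, was the weakest of the expressed members (ENSG00000198369, chromosome 2, 65310851 to 65432637). It had 2.13, 1.02 and 2.08 FPKM in bryostatin replicates 1 to 3 and 0.740, 2.33 and 0.881 FPKM in DMSO replicates 1 to 3. The same 3 libraries as for SPRED1 were high, and the groups overlapped. They would not without DMSO replicate 2, but the share of all genes that separate in that setting was not counted. The log2 change was 0.28 with an interval from -0.40 to 0.95 (adjusted p = 0.624 in limma), and it ran from 0.10 to 0.57 with single libraries left out.

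**Figure D1:**
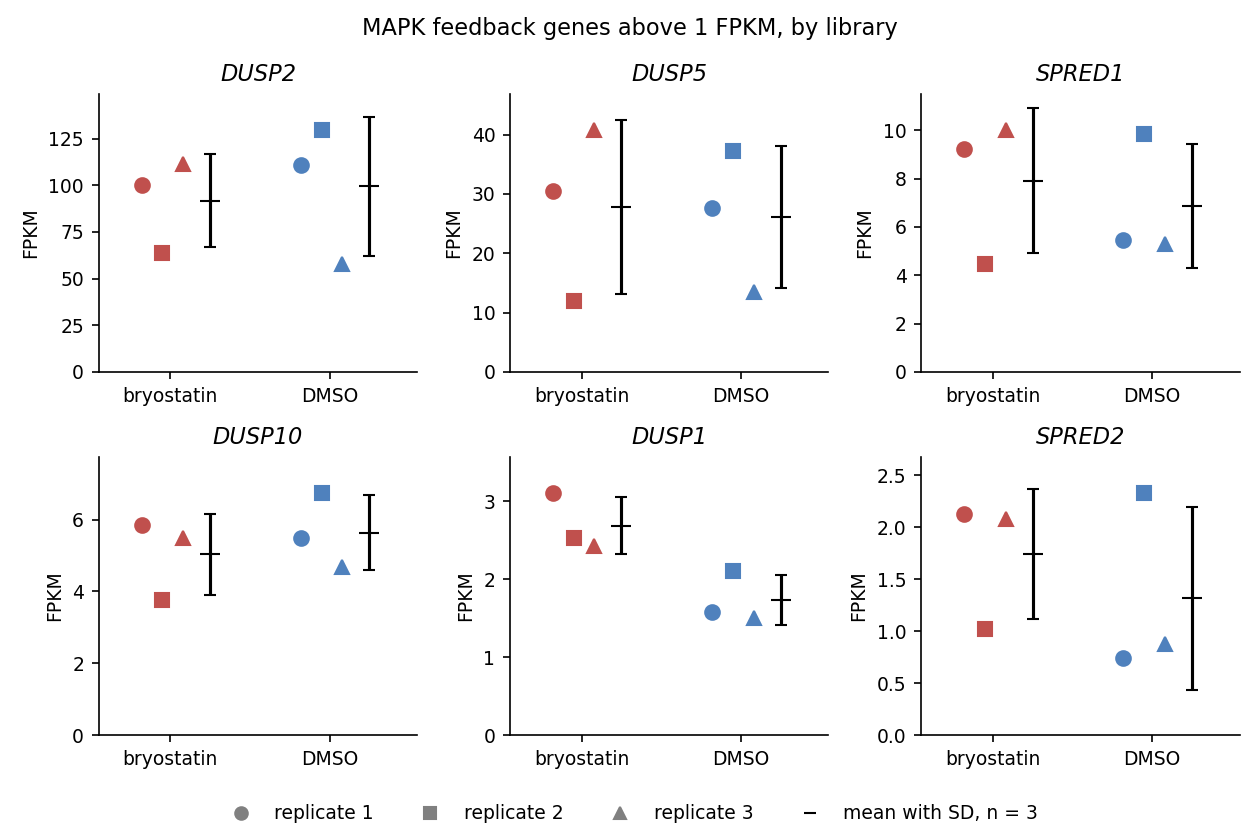
FPKM of the 6 feedback genes above 1 FPKM in each library, with Bryostatin-1 libraries on the left and DMSO libraries on the right of each panel, marker shape giving the replicate number and black bars the mean with SD (n = 3). Only for DUSP1 do the groups separate, and for DUSP2, DUSP5, SPRED1 and DUSP10 the 2 lowest points are bryostatin replicate 2 and DMSO replicate 3.

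The order of levels among the 6 expressed genes was clear at the top and blurred at the bottom. Averaged over the 6 libraries, DUSP2 stood at 95.6 FPKM, 3.55-fold above DUSP5 at 26.9 FPKM, which in turn stood 3.65-fold above SPRED1 at 7.38 FPKM. The libraries of these 3 genes did not overlap. SPRED1 overlapped with DUSP10 at 5.34 FPKM, DUSP10 lay wholly above DUSP1 at 2.21 FPKM, and DUSP1 overlapped with SPRED2 at 1.53 FPKM. The feedback transcripts of these cells were mainly those of DUSP2 and DUSP5, with DUSP2 exceeding the summed means of the other 5 expressed members.

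**Figure D2:**
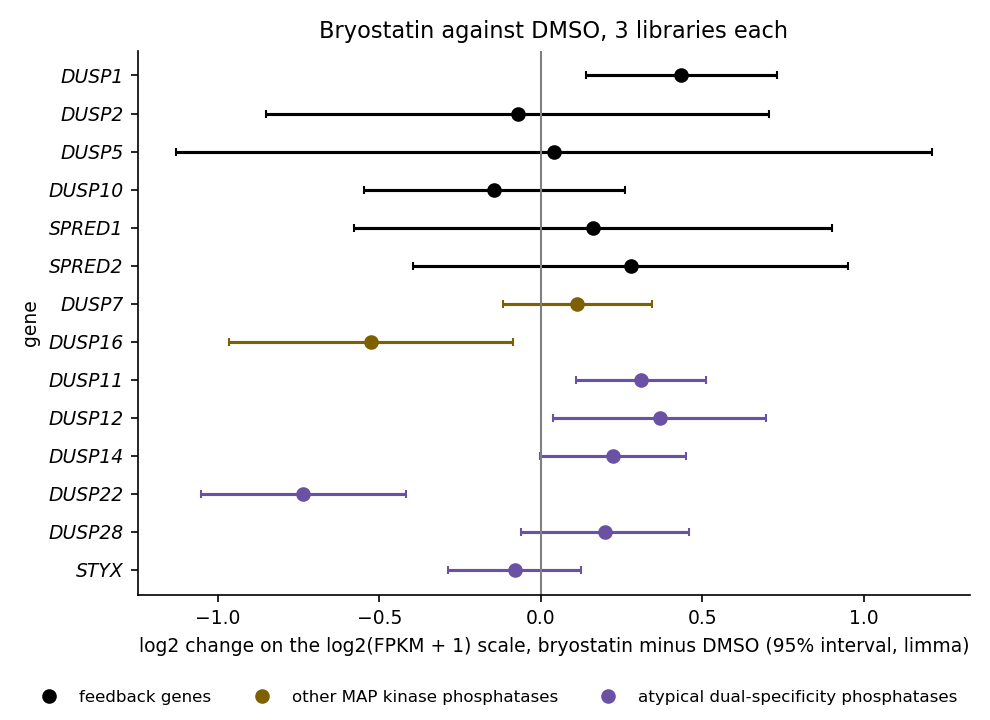
Log2 change on the log2(FPKM + 1) scale, bryostatin minus DMSO, with its 95% interval in limma, for the 6 tested feedback genes (black), the other MAP kinase phosphatases and the atypical dual-specificity phosphatases. The intervals of DUSP2, DUSP5, DUSP10, SPRED1 and SPRED2 include 0, that of DUSP5 being the widest at -1.13 to 1.21, and DUSP22 has the lowest value at -0.74.

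In 4 of the 6 tested feedback genes, DUSP5, DUSP2, SPRED1 and SPRED2, the libraries of a group were spread widely. The SD within groups, on the log2(FPKM + 1) scale, was 0.80 for DUSP5, 0.53 for DUSP2, 0.50 for SPRED1 and 0.44 for SPRED2, where the median over all tested genes was 0.14. It exceeded that of 98.9% of tested genes for DUSP5, 97.0% for DUSP2, 96.6% for SPRED1 and 95.3% for SPRED2. Among the 500 tested genes nearest in mean level, the shares were 99.6%, 98.2%, 98.2% and 90.6% in the same order. DUSP10 had 0.26, above 83.4% of all genes, and DUSP1 had 0.15, above 56.6%. The average number of reads per library was 3964 for DUSP2, 1511 for DUSP5, 1289 for SPRED1, 331 for DUSP10, 165 for SPRED2 and 93.3 for DUSP1.

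**Figure D3:**
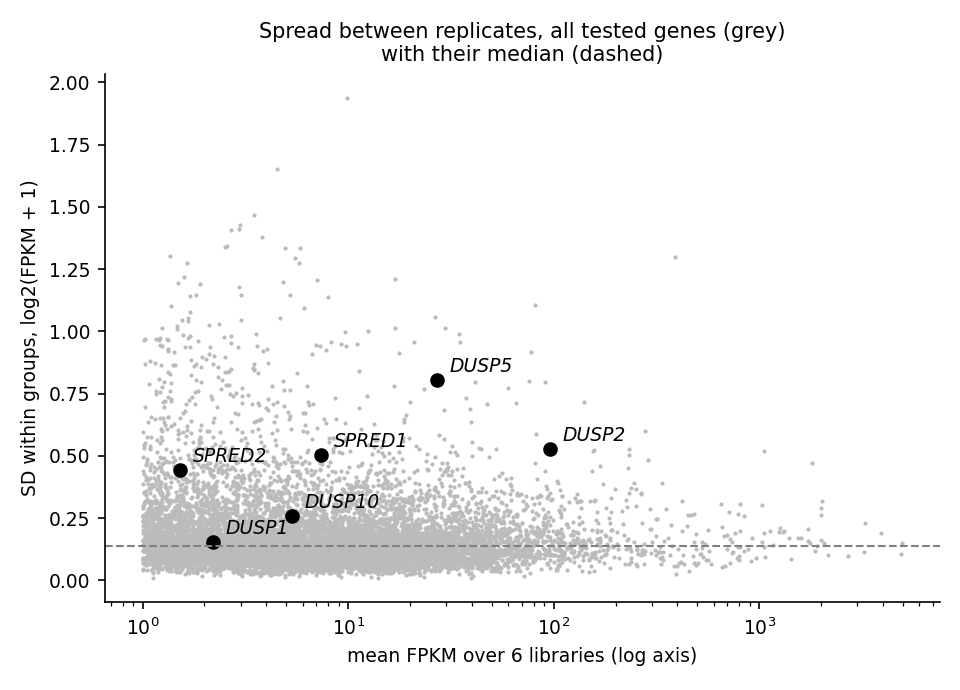
SD within groups of log2(FPKM + 1) against the mean FPKM over 6 libraries (log axis) for all 11071 tested genes (grey) and the 6 tested feedback genes (black), with the median over all genes dashed at 0.14. DUSP5, DUSP2 and SPRED1 stand above most genes of like level, and DUSP1 lies near the median.

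The spread was not scattered but followed the same libraries. Relative to the mean of the 6 libraries, the 6 genes averaged 0.28, -0.43 and 0.32 on the log2 scale in bryostatin replicates 1 to 3 and -0.10, 0.37 and -0.45 in DMSO replicates 1 to 3. Bryostatin replicate 2 and DMSO replicate 3 were the 2 lowest libraries for 4 of the 6 genes and were both among the 3 lowest for 5 of the 6, SPRED2 included. Over all tested genes, those shares were 7.80% and 19.7%. These 2 libraries also stood furthest from the others of their group over 13414 to 14078 genes, as chi-square per gene. DMSO replicate 3 gave 37.6 and 38.9 against DMSO replicates 1 and 2, which gave 18.6 against each other. Bryostatin replicate 2 gave 22.0 and 18.7 against bryostatin replicates 1 and 3, which gave 11.6 against each other. The part of this difference in the shared pattern was not tested. This pattern was noticed in the values and is a description, with no test. DUSP1 departed from it, with bryostatin replicate 2 its second highest library.

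Among 22 genes listed as outputs of ERK signalling, of which 10 were tested, the same libraries were low. Their average departures were 0.34, -0.43 and 0.48 in bryostatin replicates 1 to 3 and -0.24, 0.26 and -0.42 in DMSO replicates 1 to 3. Bryostatin replicate 2 and DMSO replicate 3 were the 2 lowest for 5 of the 10. ZFP36L1, which encodes an mRNA decay factor, had 90.2, 35.3 and 108.7 FPKM in bryostatin replicates 1 to 3 and 56.8, 120.5 and 44.0 FPKM in DMSO replicates 1 to 3. IER2, an early response gene, had 37.8, 14.3 and 35.8 FPKM with Bryostatin-1 and 13.0, 29.2 and 9.60 FPKM with DMSO. EGR1, an early growth response transcription factor named after its values were seen, had 29.97, 6.45 and 29.5 FPKM with Bryostatin-1 and 8.71, 20.3 and 6.16 FPKM with DMSO. For all 3 of these genes the groups overlapped. ZFP36L2 behaved differently, with 18.0, 19.0 and 18.8 FPKM in bryostatin replicates 1 to 3, all above the 14.5, 13.1 and 16.5 FPKM of DMSO replicates 1 to 3 (log2 change 0.32, adjusted p = 0.223 in limma). Of the 10, 8 had a positive log2 change, beside 53.9% of all tested genes, and the median of the 10 was 0.17. In limma or with voom weights adjusted over all genes, 0 of the 10 passed. ZFP36L2 alone had an unadjusted p under 0.05 in limma, where the share over all genes was 17.6%. It was also the only 1 of the 10 to separate completely, and 12.9% of all tested genes separated with higher values. KLF10, the abundant TGF-beta early response gene, had 25.5 ± 1.34 FPKM with Bryostatin-1 and 27.2 ± 3.75 FPKM with DMSO (SD, n = 3 each).

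**Figure D4:**
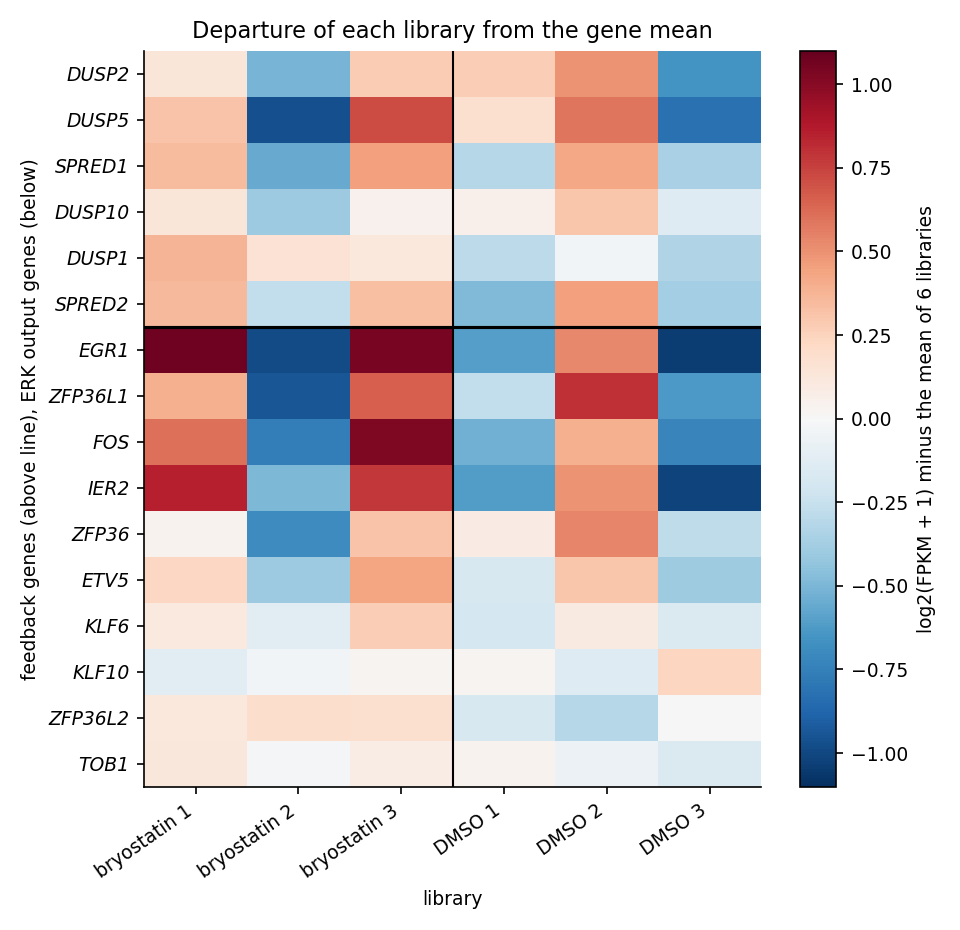
Departure of log2(FPKM + 1) in each library from the gene's mean over 6 libraries (colour), for the 6 tested feedback genes above the line and the 10 tested ERK output genes below it, with Bryostatin-1 libraries left of DMSO libraries. Bryostatin replicate 2 and DMSO replicate 3 form blue columns for most genes. DUSP1 and ZFP36L2 are positive in all 3 Bryostatin-1 libraries, while KLF10 is highest in DMSO replicate 3. TOB1, ZFP36L2 and KLF10 have the smallest SD within groups among the 10 output genes.

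B-cell markers were low in the same libraries to a smaller extent. Their average departures were 0.10, -0.22 and 0.10 in bryostatin replicates 1 to 3 and 0.012, 0.26 and -0.25 in DMSO replicates 1 to 3, and for 6 of the 7 markers bryostatin replicate 2 and DMSO replicate 3 were both among the 3 lowest. The summed level of the marker list ranged as given above, and no marker of this list was at 0. The fewest reads, 19405370, were in bryostatin replicate 1, whose average departure was 0.28 for the feedback genes. Bryostatin replicate 2 had 19671580 reads and DMSO replicate 3 had 19883563. The T-cell marker TRBC2 was likewise lowest in these 2 libraries, at 10.2 FPKM in bryostatin replicate 2 and 10.9 FPKM in DMSO replicate 3. The part of the marker shift or of depth in the shared pattern was not tested.

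Likeness between genes was measured as Pearson's r of log2(FPKM + 1) over the 6 libraries, among 68 tested genes of the listed pathways for each member, and is given as a description of libraries that share treatment groups. DUSP2 and DUSP5 were most like each other (r = 0.95, Spearman's rho = 0.83). DUSP10 was most like ZFP36 (r = 0.95, rho = 0.77), which encodes the mRNA decay factor tristetraprolin, and SPRED1 was most like ZFP36L1 (r = 0.98, rho = 0.94). SPRED2 was most like RASGRP2 (r = 0.95, rho = 0.94), which encodes a calcium-regulated exchange factor for the GTPase RAP1. DUSP1 was most like MAP2K7 (r = 0.96, rho = 1.00), the gene of a JNK kinase, which had 15.7 ± 0.731 FPKM with Bryostatin-1 and 13.4 ± 1.33 FPKM with DMSO (SD, n = 3 each).

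The remaining phosphatase genes gave a different picture. Of the 4 other MAP kinase phosphatases, DUSP7 and DUSP16 were tested, while DUSP8 and DUSP9 were below the level for testing. DUSP16, or MKP-7, a JNK phosphatase, had 5.12, 6.61 and 5.68 FPKM in bryostatin replicates 1 to 3 and 11.9, 6.75 and 8.31 FPKM in DMSO replicates 1 to 3. Each Bryostatin-1 library lay below each DMSO library, by a narrow margin against DMSO replicate 2 (log2 change -0.53, adjusted p = 0.240 in limma). A complete separation with lower values was found in 10.7% of all tested genes. DUSP7 had 8.20 ± 0.559 FPKM with Bryostatin-1 and 7.53 ± 0.793 FPKM with DMSO (SD, n = 3 each).

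Among 15 atypical dual-specificity phosphatases, small enzymes that lack the MAP kinase docking part, 14 were in the table and 6 were tested, with 0 called in limma or with voom weights and a median log2 change of 0.21. DUSP22, also known as JKAP, had 23.4, 24.4 and 24.0 FPKM in bryostatin replicates 1 to 3 and 49.4, 39.3 and 34.2 FPKM in DMSO replicates 1 to 3. The Bryostatin-1 libraries lay close together and below every DMSO library, and the log2 change of -0.74 was larger in size than that of any feedback gene (adjusted p = 0.216 in limma). DUSP11, a phosphatase of RNA, had 8.78 ± 0.712 FPKM with Bryostatin-1 and 6.88 ± 0.301 FPKM with DMSO (SD, n = 3 each), without overlap (log2 change 0.31, adjusted p = 0.217 in limma). DUSP12 had a log2 change of 0.37 with overlapping groups. Of the 6 tested, 3 separated completely with higher and 1 with lower values, beside 12.9% and 10.7% of all tested genes. These counts were not tested. The Sprouty and Spred relatives SPRY3, SPRY4 and SPRED3 were all below the level for testing.

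In genes of the cascade that the feedback acts on, the median SD within groups was 0.10, beside 0.14 over all genes. Of 24 genes from the RAS exchange factors to ERK, 20 were tested, 8 with a positive and 12 with a negative log2 change and a median of -0.05. None passed in limma or with voom weights. An unadjusted p under 0.05 in limma was found for 3, where the share over all genes was 17.6%. Of these, HRAS (log2 change 0.43) and SHC1 (0.29) were higher with Bryostatin-1, and the ERK gene MAPK3 (-0.26) was lower. HRAS had 22.1 ± 3.47 FPKM with Bryostatin-1 and 16.1 ± 1.78 FPKM with DMSO, and the adaptor SHC1 had 11.6 ± 1.33 FPKM with Bryostatin-1 and 9.30 ± 0.707 FPKM with DMSO (SD, n = 3 each; adjusted p = 0.227 and 0.240 in limma). The abundant GRB2, an adaptor, and MAP2K1, which encodes the ERK kinase MEK1, had log2 changes of 0.06 and 0.08. Among 8 tested inhibitors of RAS and RAF, 4 had a positive and 4 a negative change. NF1, the gene of neurofibromin, had 2.07 ± 0.251 FPKM with Bryostatin-1 and 2.60 ± 0.175 FPKM with DMSO, and RASA1, another RAS GTPase-activating protein, had 5.37 ± 0.0812 FPKM with Bryostatin-1 and 6.33 ± 0.665 FPKM with DMSO (SD, n = 3 each), both lower without overlap, like 10.7% of all tested genes (adjusted p = 0.292 and 0.301 in limma). PEBP1, the RAF kinase inhibitor protein and the most abundant of these, had a log2 change of 0.13.

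In the JNK and p38 cascades 10 of 13 genes were tested, with a median log2 change of 0.0081, and 0 passed in limma or with voom weights or had an unadjusted p under 0.05 in limma. MAPKAPK2 and MAP2K3, the most abundant, had log2 changes of -0.06 and -0.09, and MAPK8, which encodes JNK1, of 0.12. Of 10 kinases and substrates that ERK activates, 7 were tested, 2 with a positive and 5 with a negative change. An unadjusted p under 0.05 in limma was found for 1 gene of the 7, where the share over all genes was 17.6%. That gene was ELK4, a partner of SRF, with 8.64 ± 0.662 FPKM with Bryostatin-1 and 10.0 ± 0.395 FPKM with DMSO (SD, n = 3 each; adjusted p = 0.282 in limma). SRF itself had a log2 change of 0.27, the kinase gene MKNK2 of -0.17 and RPS6KA1 of -0.05.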

How the data were processed

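The table was deposited by the authors as FPKM values for 58735 genes in 6 libraries, with gene lengths. The submitters' processing notes list hg38, featureCounts 1.5.0-p3, HISAT2 2.0.5, DESeq2 1.20.0 and CASAVA, with no role for any. The sources used here give no strand setting, annotation release or filters, although GENCODE release 29 has the same coordinates for all 58735 genes. Reads were recovered from FPKM times gene length, and 100% of values came out whole to within 0.01 reads. Replicates of a group differed beyond sampling noise (chi-square of at least 11.6 per gene).

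The 11071 genes averaging 1 FPKM or more were fitted in limma 3.58.1 (R 4.3.3) on log2(FPKM + 1), with an intensity trend and Benjamini-Hochberg adjustment over all genes (threshold 0.05). FPKM were tested on the log scale, and the recovered reads entered an alternative. The fit was tested on simulated data in which genes vary independently, so that test does not cover the shared library pattern described above. Members, gene lists and tests were chosen with earlier results of these data known. Named were all members and, per list, the 2 genes with the smallest p and the 2 most abundant. The gene most like each tested member was named too. EGR1, TOB1 and MAPK3 were added after their values were seen. Some genes that this rule names are not reported here. In each list the counts are of tested genes only.

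Alternatives were pseudocounts of 0.1 and 0.5, no filter or 5 FPKM, TPM, median-of-ratios scaling, no trend, the replicate number as a block, each library left out, and voom on recovered reads.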

Additional observations from a re-analysis of the deposited data

How the results depend on the processing

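Over 15 alternatives no feedback gene passed an adjusted p of 0.05, and DUSP1 stayed positive in the 14 that tested it, at 0.35 to 0.53 with a library left out. Scaling to TPM gave -0.0089 for DUSP5 and moved the median of all genes to -0.04. With a library left out the log2 change ran from -0.36 to 0.53 for DUSP5, -0.42 to 0.17 for DUSP2, -0.25 to 0.0191 for DUSP10 and -0.0245 to 0.48 for SPRED1, so each of these took either sign, and the cause was not tested. The members' median ran from -0.11 to 0.47 in those fits and was -0.0161 with a filter of 5 FPKM. The number of positive members ran from 2 to 6 in those fits and was 2 of 4 with a filter of 5 FPKM. Members without overlap numbered 1 to 2 with a library left out, 2 without a filter, where DUSP6 at 9 reads in all was added, and 0 with a filter of 5 FPKM, which leaves out DUSP1. The shares of all genes without overlap were not counted in these settings, and those given above are of the main fit only. Over all genes, 0 to 266 passed with a library left out, 266 of them without DMSO replicate 3, 1 without DMSO replicate 2, and 1 passed with a pseudocount of 0.1 or TPM. Same-numbered libraries had correlations of -0.29, -0.32 and -0.11 between their deviations. With 3 libraries a group, these values cannot settle whether the numbers pair the libraries. With the replicate block in limma, DUSP1 kept 0.43 (adjusted p = 0.456) and 0 genes passed. For DUSP4, DUSP6, SPRY1 and SPRY2 depth limits any comparison.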
